A study of Rattus norvegicus with 25 samples.

Results

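Gingiva treated with a zinc oxide nanoparticle gel (ZNP gel) was compared with gingiva treated with a curcumin gel (Cur gel). The 10 libraries of these groups, chosen by their treatment labels, are 10 of the 25 libraries of the series. Each group held 5 rats with 1 library per rat. All rats were wild type Sprague-Dawley animals, 6 weeks old by the labels, and the methods of the paper give a different age. Both groups carried experimental periodontitis (EP), induced with silk ligatures around the upper first molars and Porphyromonas gingivalis smeared on the silk. Both then received 200 μL of a methylcellulose hydrogel in the periodontal pockets once a week for 4 weeks. The Cur gel held 2 mg/mL curcumin and the ZNP gel 2 mg/mL zinc oxide nanoparticles. Disease model, gel base, volume and mass concentration were thus shared by design, and the agent differed. In the paper's release assay in vitro a larger share of the curcumin than of the particles had left the gel after a week, so released amounts were not matched there. The comparison asks how far the gingival transcriptome depends on which of these agents the gel carries. Values of the EP group without a drug gel and of the Sham and combined Cur/ZNP gel groups, 5 rats each, are given beside some genes as a description. In the paper the Sham rats were healthy controls that received hydrogel. The labels give 200 μL over 4 weeks for them and list no drug dose. Whether the rats of the EP group received gel without drug is not stated.

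Zinc oxide particles dissolve slowly and release zinc ions. Cells answer surplus zinc through the sensor Mtf1, which drives metallothioneins that bind the metal and the exporter Slc30a1 that pumps it out. Curcumin is a polyphenol of turmeric that reacts with thiols, can free the antioxidant regulator Nrf2 from Keap1 and has been described as a damper of NF-kB and AP-1, the transcription factor formed by Fos and Jun proteins. Fos, Egr1 and Dusp1 belong to the immediate early genes, which cells switch on briefly after growth factors, stress or injury without new protein synthesis.

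Reads per library ranged from 61098643 to 68583320 in the Cur gel group and from 59749001 to 81791804 in the ZNP gel group. Transcript rows were summed to 30214 genes, and 15279 genes with a CPM (counts scaled to a common library total) of 2 or more in at least 1 of the 10 libraries were tested. Markers of gingiva were present throughout: the 10 genes of basal keratinocytes summed to 2413 to 13250 CPM and the 11 fibroblast genes found to 3157 to 9422 CPM. Neighbouring tissues were present as well and unevenly. Skeletal muscle genes summed to 1750 CPM in Cur gel 1 and 219 in Cur gel 4 against 8512 to 60370 in the ZNP gel libraries, and salivary gland genes to 62832 to 160280 CPM in the Cur gel group against 4240 in ZNP gel 3 and 46412 to 112220 in the other ZNP gel libraries. Since these are bulk samples, fewer cells of a type and less RNA per cell cannot be told apart.

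No gene differed between the gels at an adjusted p under 0.05 in limma, which called 0 of 15279 genes (0.0%) and gave a lowest adjusted p of 0.469, for LOC100364116. At an unadjusted p under 0.05 limma gave 501 genes (3.28%), 230 with a higher mean in the ZNP gel group (1.51%) and 271 with a lower mean (1.77%). The 3.28% lay below the share of 0.05 that this threshold gives on average when no gene differs. edgeR called 0 genes with TMM factors (489 at an unadjusted p under 0.05, 3.2%) and 0 with RLE factors (494, 3.23%). DESeq2 called 10 (0.0654%; 740 unadjusted, 4.84%) and gave no adjusted p for 113 genes (0.74%). With all 25 libraries in 1 limma model, 178 genes (1.16%) had an unadjusted p under 0.05 and 0 an adjusted one. Differences were small over most of the transcriptome, with a median size of 0.14 on the log2 scale. Within the groups the median SD of a gene was 0.28 in the Cur gel group and 0.30 in the ZNP gel group, larger than that. The intervals, taken gene by gene and not adjusted over all genes, limit what could have been missed. For 11656 genes (76.3%) the whole 95% interval of the difference lay within 2-fold either way, and for 7854 (51.4%) within 1.5-fold. For the genes outside the 2-fold limit the interval reached to 2-fold or beyond on at least 1 side, so a difference of that size was not excluded with 5 rats per group. In 68 genes (0.445%) the libraries of the gels did not overlap, in 43 with every ZNP gel library above every Cur gel library (0.281%) and in 25 the other way (0.164%). With 5 libraries against 5, random labels would separate a gene fully with a probability of 0.00794. The share seen was below that, so the separation of a gene named below is a description only.

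**Figure D1:**
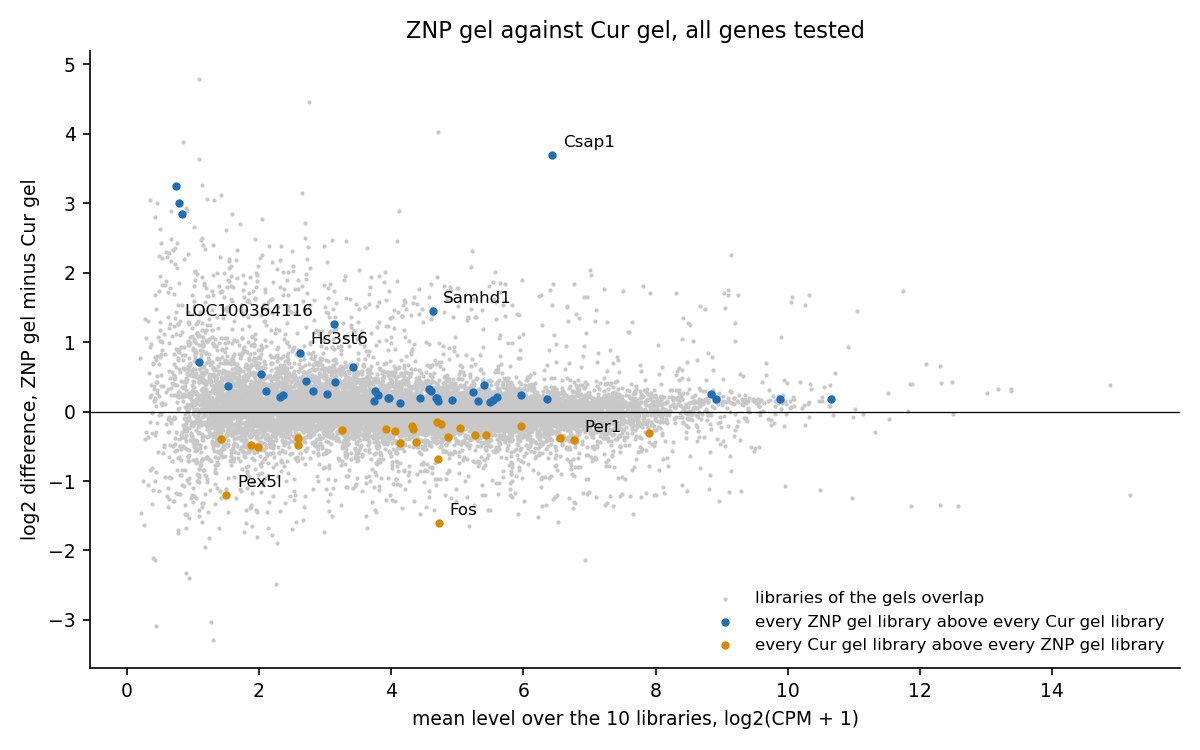
Log2 difference between the gels (ZNP gel minus Cur gel, y axis) against the mean level over the 10 libraries (x axis, log2 of CPM + 1), 1 point per gene tested. Coloured points are the 68 genes whose libraries do not overlap between the gels, with Csap1 at 3.69 and Fos at -1.61 farthest from 0 among those named.

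Libraries of different gels were about as alike as libraries of the same gel. Across genes, the correlation of log2 values had a median of 0.880 within the Cur gel group, 0.929 within the ZNP gel group and 0.920 between them. The first principal component held 39.3% of the variance and differed by 16.5 between the group means (two-sided exact permutation test, p = 0.627, adjusted p = 0.627 over 2 components), and the second held 21.6% and differed by 38.7 (exact p = 0.183, adjusted p = 0.365). The smallest p this design allows is 0.00794. The distance of each library from the mean of its own group averaged 0.867 ± 0.0957 (SD, n = 5) for Cur gel and 0.725 ± 0.141 for ZNP gel on the log2 scale, a difference of -0.14 (exact permutation test, p = 0.119). Without Cur gel 3 this difference was -0.22 (exact permutation test, p = 0.0317) and without ZNP gel 3 it was -0.17 (exact permutation test, p = 0.0317). With any other single library left out, the exact permutation p ran from 0.0952 to 0.444. Without Cur gel 1 and Cur gel 4 together the difference was -0.02 (exact permutation test, p = 0.821). With genes scaled to unit variance it was -0.002 (exact permutation test, p = 0.984).

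The immediate early genes lay mostly on the Cur gel side. All 20 listed members were tested, and 6 had a lower mean in the ZNP gel group at an unadjusted p under 0.05 and 0 a higher one, beside 1.77% and 1.51% of all genes. Their median log2 difference was -0.25, beside 0.02 over all genes. It was -0.13 without Cur gel 1 and Cur gel 4, where 5 members had a lower mean at an unadjusted p under 0.05, beside 1.49% of all genes in that fit. The 6 were Fos, Fosb, Egr1, Jun, Dusp1 and Zfp36, an RNA-binding protein that shortens the life of cytokine messages (-0.44 ± 0.19). None passed the adjusted threshold in limma.

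Fos, the DNA-binding AP-1 subunit that marks recently stimulated cells, had normalised read counts of 3292, 1677, 4661, 1336 and 3068 in the Cur gel libraries and of 921, 719, 643, 1293 and 724 in the ZNP gel libraries. Every Cur gel library lay above every ZNP gel library, with Cur gel 4 and ZNP gel 4 nearest to each other. The log2 difference was -1.61 ± 0.34 (SE), a mean 3.05-fold higher in the Cur gel group, with a 95% interval of -2.37 to -0.85. In limma its adjusted p was 0.957, DESeq2 gave an adjusted p of 0.00265, and over all settings tried the adjusted p ran from 0.00265 to 1 while the log2 difference stayed between -1.84 and -1.39. Rats of the EP group held 549 to 1203 Fos counts, so that 4 of 5 ZNP gel libraries lay within the EP range, ZNP gel 4 lay just above it, and each Cur gel library lay above it. In the combined Cur/ZNP gel group Fos ranged from 818 to 1990, overlapping both single gels.

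Fosb, a close relative of Fos that also pairs with Jun proteins, had 721, 245, 865, 148 and 950 counts with Cur gel and 123, 109, 201, 152 and 210 with ZNP gel. Cur gel 4 lay inside the ZNP gel range, and the log2 difference was -1.59 ± 0.52 (SE). Egr1, a zinc finger factor of the early growth response, had 7262, 1990, 5956, 3073 and 3145 counts against 3246, 1496, 1897, 1832 and 1372, with overlap through ZNP gel 1. Its log2 difference of -1.03 ± 0.36 was -0.83 without Cur gel 1 and Cur gel 4. Jun, the partner of Fos in AP-1, differed by -0.38 ± 0.11, with 8686 to 11488 counts against 6608 to 8813, and only Cur gel 2 and ZNP gel 5 crossed. All 3 genes had their higher mean on the same side as Fos, and unlike Fos each overlapped between the gels.

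Dusp1, a phosphatase that switches off MAP kinases and is itself an early gene, had 11281, 8719, 14663, 11191 and 11802 counts with Cur gel and 7078, 7074, 7156, 9487 and 7692 with ZNP gel. Only Cur gel 2 lay below the highest ZNP gel library, ZNP gel 4. The log2 difference was -0.57 ± 0.14 (SE), between -0.67 and -0.48 under the settings tried, and the EP rats held 5816 to 9595 counts. Its promoter is shown because cyclic AMP response elements (CRE), bound by CREB and AP-1 family factors, are a feature that early genes share and that was not used to choose them. The RefSeq window (GRCr8, chr10:17184603-17184902, plus strand) runs from 250 bases before to 50 after the start, and capitals mark the CRE core TGACG on either strand, whose forward and reverse matches overlap in the full palindrome.
Dusp1: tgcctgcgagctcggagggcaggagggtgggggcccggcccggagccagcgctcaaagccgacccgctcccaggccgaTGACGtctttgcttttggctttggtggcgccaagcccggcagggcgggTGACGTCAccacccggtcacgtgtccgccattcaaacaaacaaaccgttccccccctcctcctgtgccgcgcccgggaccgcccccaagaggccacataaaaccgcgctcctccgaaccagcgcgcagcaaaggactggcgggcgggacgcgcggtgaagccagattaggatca
The window holds 3 cores counted over both strands. Of the 20 immediate early genes 13 had a promoter window in the table, and 10 of these 13 (76.9%) held such a core, beside 21.2% of all 33469 promoters. The core also stood in 33.3% of 12 promoters of metallothioneins and zinc exporters, 30.8% of 13 of zinc importers and 22.2% of 18 of clock genes. The full palindrome TGACGTCA stood in 1.83% of all promoters. The windows of Fosb and Per1 held no TGACG, which says only that these letters are not in those windows, and those of Fos and Jun were not analysed here. In all, 10878 of the 15279 genes tested matched a window by symbol.

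**Figure D2:**
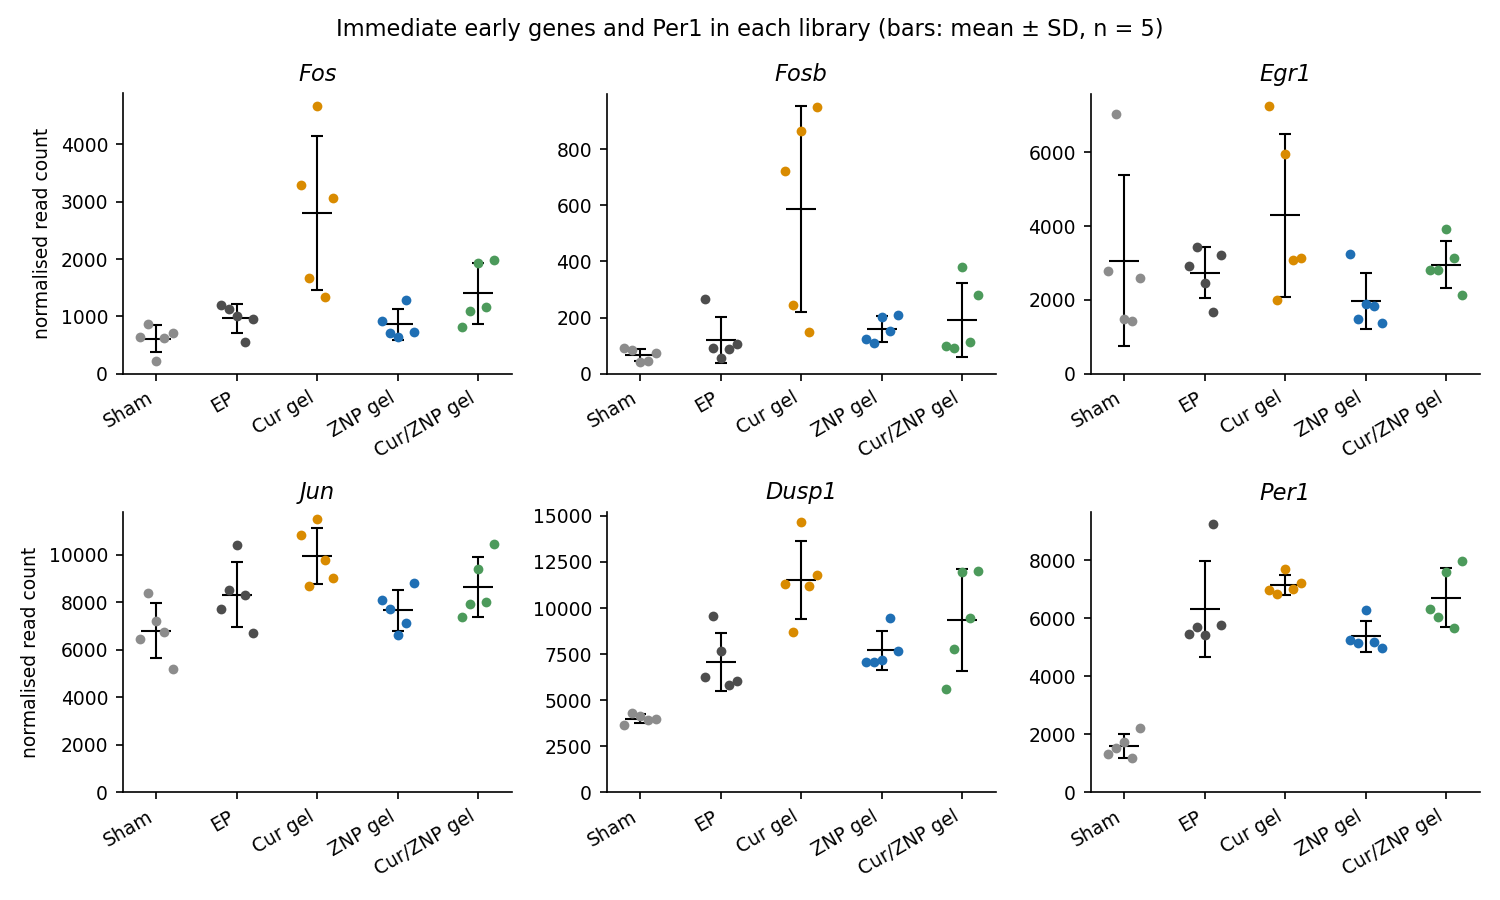
Normalised read counts of 5 immediate early genes and Per1 in each library (points) by group, with mean ± SD (bars, n = 5 rats). The 5 Cur gel points of Fos lie between 1336 and 4661, above the EP points at 549 to 1203, while the ZNP gel points lie between 643 and 1293.

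The circadian clock runs on a loop in which Clock and Bmal1 (Arntl) drive the Per and Cry genes, the repressors Nr1d1 and Nr1d2 and the output factor Dbp, and the products feed back. All 20 clock genes were tested. At an unadjusted p under 0.05, 5 had a lower mean in the ZNP gel group, namely Per1, Bhlhe41, Nr1d2, Dbp and Nr1d1, and 1 a higher one, Arntl (0.35 ± 0.14), beside 1.77% lower and 1.51% higher over all genes, and the median log2 difference was -0.14. Without Cur gel 1 and Cur gel 4 the counts were 2 lower and 1 higher, beside 1.49% and 2.74% of all genes in that fit.

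Per1, a clock repressor that is also an early gene and a glucocorticoid target, had 6979, 6849, 7691, 7013 and 7201 counts with Cur gel and 5264, 5140, 6297, 5194 and 4965 with ZNP gel. The groups did not overlap and the spread within each was narrow, with means of 7147 ± 329 (SD, n = 5) and 5372 ± 529. The log2 difference was -0.42 ± 0.08 (SE), 1.33-fold. limma gave an adjusted p of 0.957 and DESeq2 one of 0.00726, and over all settings the adjusted p reached 1. EP rats held 5405 to 9258 Per1 counts, a range that holds every Cur gel library but, of the ZNP gel libraries, only ZNP gel 3.

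Dbp differed by -0.57 ± 0.23, Bhlhe41, a repressor of Clock activity, by -0.53 ± 0.17, and Nr1d2 by -0.31 ± 0.11 on the log2 scale, and each overlapped between the gels. Nr1d1, the heme-sensing repressor of Bmal1, had 7053, 7696, 5653, 6321 and 5384 counts with Cur gel and 5957, 4937, 5861, 3079 and 4066 with ZNP gel, a log2 difference of -0.45 ± 0.19. All 10 libraries lay below the lowest EP library, where Nr1d1 ranged from 8676 to 12230, while the combined gel held 7916 to 10889. In the model of all 25 libraries Nr1d1 was the only gene limma called between ZNP gel and EP (1 of 15279, 0.00654%; 452 at an unadjusted p under 0.05, 2.96%), with a log2 difference of -1.14 and an adjusted p of 0.0429. Between Cur gel and EP, which share the EP libraries with that comparison, limma called 0 genes (253 unadjusted, 1.66%) and Nr1d1 differed by -0.68. In EP 3, EP 4 and Sham 4 a few genes dominated (40.7%, 47.7% and 51.0% of reads in the top 10 genes), and without these libraries the Nr1d1 difference between ZNP gel and EP was -1.24 with an adjusted p of 0.261 in limma. The call held without ZNP gel 1 or ZNP gel 3 and was lost when any other library of the EP, Cur gel or ZNP gel groups was left out, with adjusted p-values of 0.0509 to 0.258. Per2 differed by 0.14 ± 0.19 between the gels. Glucocorticoid targets other than Per1 and Dusp1 had mixed directions over all 10 libraries. Tsc22d3, the anti-inflammatory leucine zipper protein, differed by -0.15 ± 0.17 and Fkbp5, the receptor chaperone, by 0.12 ± 0.21. Angptl4, an inhibitor of lipoprotein lipase, differed by 0.95 ± 0.29. The median of the 12 glucocorticoid genes tested was -0.002. It was -0.27 without Cur gel 1 and Cur gel 4 and -0.21 with muscle and gland levels as covariates. In these fits Tsc22d3 differed by -0.31 and -0.31, Fkbp5 by -0.17 and -0.10, and Angptl4 by 1.01 and 0.79.

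The genes whose libraries did not overlap included several with larger gaps on the ZNP gel side. LOC100364116, annotated as resembling ribosomal protein S20 (chromosome 20, positions 8484311 to 8484676 in Rnor_6.0), had 321, 283, 243, 315 and 266 counts with Cur gel and 659, 923, 713, 729 and 469 with ZNP gel. Its log2 difference was 1.26 ± 0.18 (SE), 2.40-fold, and the adjusted p in limma was 0.469, against 9.02e-08 in DESeq2 and up to 1 in other settings. Ribosomal protein copies share reads with one another, so this locus is uncertain, and the Sham rats held 422 to 3559 counts of it. Rps9, an intact ribosomal protein gene, also did not overlap, with 23111 to 25130 against 27345 to 30005 counts, a gap of 0.25 ± 0.08 on the log2 scale (adjusted p = 0.957 in limma, 0.000421 in DESeq2 and up to 1 in other settings).

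Samhd1, which breaks down deoxynucleotides and restricts retroviruses, had 927, 690, 1535, 531 and 718 counts with Cur gel and 2551, 2184, 2184, 2140 and 2170 with ZNP gel. The ZNP gel libraries were close together and all above the Cur gel libraries, of which Cur gel 3 came nearest. The log2 difference was 1.45 ± 0.24 (SE), 2.73-fold, with an adjusted p of 0.957 in limma. Without Cur gel 3 it was 1.67 and passed limma with an adjusted p of 0.0228, the single call among the fits that left out 1 library, and over all settings the adjusted p ran from 0.00117 to 1. EP rats spanned 428 to 3724 Samhd1 counts, wider than both gel groups together.

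Csap1, a secreted protein of salivary glands, had 2592, 1911, 3448, 989 and 249 counts with Cur gel and 18729, 4763, 30994, 35817 and 15588 with ZNP gel, a log2 difference of 3.69 ± 0.76 (SE) or 13.0-fold. Its adjusted p was 0.957 in limma, 6.03e-05 in DESeq2 and up to 1 in other settings. The 13 tested salivary gland genes as a list pointed the other way, with a median of -1.21 and 2 of 13 above 0, but 0 of 13 had an unadjusted p under 0.05. That median was -0.35 without ZNP gel 3, the library poorest in salivary gland transcripts. It was -0.09 with muscle and gland levels as covariates. The gland covariate is the mean of this same list, so that fit cannot decide whether the list differs between the gels. Csap1 also varied widely outside these groups, from 255 to 68777 in Sham rats and from 5.22 to 86689 in the combined gel group.

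The other genes of the 10 largest gaps in each direction had smaller gaps. On the ZNP gel side these were Hs3st6, which adds sulfate to heparan sulfate (log2 difference 0.85 ± 0.21), the predicted locus AC105662.1 (0.72 ± 0.26), Prrx2, a homeobox factor of mesenchyme (0.64 ± 0.19), Zfp296, a zinc finger protein (0.53 ± 0.20), Dctpp1, which cleans the nucleotide pool (0.44 ± 0.13), Rassf10, a Ras association domain protein (0.42 ± 0.14), and Klf10, an early response factor of TGF-beta (0.38 ± 0.14). Hs3st6 had 177, 261, 141, 250 and 305 counts with Cur gel against 355, 415, 448, 409 and 354 with ZNP gel. On the Cur gel side stood Pex5l, a relative of the peroxisomal import receptor that binds ion channels (-1.20 ± 0.41), 3 predicted loci between -0.68 and -0.49, Serpina11, a serpin (-0.48 ± 0.19), Phactr4, a regulator of protein phosphatase and actin (-0.46 ± 0.10), Gnaq, a G protein subunit downstream of many hormone receptors (-0.43 ± 0.11), and Pcdhga6, a protocadherin whose exons are shared in a cluster (-0.40 ± 0.19). The Pex5l gap rested in part on Cur gel 3, which held 412 counts against 86.7 to 175 in the other Cur gel libraries. Phactr4 had 1192, 1194, 1051, 1180 and 976 counts against 792, 901, 782, 881 and 714, and DESeq2 called it with an adjusted p of 0.0140 (0.957 in limma and up to 1 in other settings).

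DESeq2 also called 3 genes in which few libraries or few reads carried the difference. Cryba2, a beta crystallin, had 1918 and 1383 counts in Cur gel 1 and Cur gel 4 and 6.97 to 42.3 in the other 8 libraries, and its log2 difference of -3.29 in limma was -0.90 without these libraries. AABR07053516.2 had 243 and 182 counts in Cur gel 2 and Cur gel 3 and was at 0 in the others. AABR07060788.1 had 4.19 to 27.4 counts with Cur gel and 34.6 to 187 with ZNP gel.

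Genes that answer zinc overlapped between the gels. Of 12 tested metallothioneins, zinc exporters and Mtf1, 0 reached an unadjusted p under 0.05 in either direction, and the median log2 difference was -0.06. Mt2A, a metallothionein, had 5432, 3327, 3842, 4664 and 2232 counts with Cur gel and 5621, 4156, 2863, 3377 and 3749 with ZNP gel. The groups overlapped fully, and the log2 difference of 0.05 ± 0.25 (SE) had a 95% interval of -0.51 to 0.60. Slc30a1, the zinc exporter of the cell surface, differed by -0.09 ± 0.11, with an interval of -0.32 to 0.15, and its 1574 to 2074 counts with Cur gel and 1462 to 1893 with ZNP gel overlapped. Mtf1 differed by -0.25 ± 0.14. The row named Mt1 differed by -0.44 ± 0.42, but it lies on chromosome 17 in the files while RefSeq (GRCr8) places Mt1 on chromosome 19, so which copy was counted is uncertain.

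The promoters of Mt2A (chr19:10838659-10838958, minus strand) and Slc30a1 (chr13:106021769-106022068, plus strand; both RefSeq, GRCr8) are shown because their metal response elements are the sites that Mtf1 reads. Capitals mark the core of the element, TGCACNC or TGCGCNC, on either strand.
Mt2A: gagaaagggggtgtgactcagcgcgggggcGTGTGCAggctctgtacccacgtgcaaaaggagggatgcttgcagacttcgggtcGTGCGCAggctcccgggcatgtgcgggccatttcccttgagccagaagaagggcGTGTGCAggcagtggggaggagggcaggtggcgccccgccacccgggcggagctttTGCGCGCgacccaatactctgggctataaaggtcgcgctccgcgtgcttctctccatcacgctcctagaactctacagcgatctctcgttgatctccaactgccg
Slc30a1: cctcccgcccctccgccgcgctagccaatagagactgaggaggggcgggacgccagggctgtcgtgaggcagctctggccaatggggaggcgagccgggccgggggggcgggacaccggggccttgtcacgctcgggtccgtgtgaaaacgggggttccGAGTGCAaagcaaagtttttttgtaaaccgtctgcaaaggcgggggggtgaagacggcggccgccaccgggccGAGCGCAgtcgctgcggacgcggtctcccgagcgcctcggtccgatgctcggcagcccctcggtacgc
Mt2A held 4 matches and Slc30a1 2. In the list of metallothioneins and exporters 8 of 12 promoters found (66.7%) held a match, beside 24.2% of all 33469 promoters. The same core stood in 61.5% of 13 immediate early gene promoters, 44.4% of 18 clock promoters and 38.5% of 13 zinc importer promoters. A share above that of all promoters was thus not particular to this list. A match is a description of the letters and does not show binding.

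Among 13 tested zinc importers the median log2 difference was -0.01. Beside 1.51% higher and 1.77% lower over all genes, 1 importer lay above and 0 below at an unadjusted p under 0.05. That gene was Slc39a2, an importer of epithelia that is induced when zinc is scarce, with 70.0, 107, 41.4, 39.2 and 83.1 counts in the Cur gel libraries and 95.7, 182, 109, 128 and 131 in the ZNP gel libraries. Only Cur gel 2 reached into the ZNP gel range, and the log2 difference was 0.98 ± 0.33 (SE), with an adjusted p of 0.957 in limma.

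Redox genes lay close together with both gels. For all 19 tested genes of the NRF2 pathway the 95% interval lay within 2-fold, 0 reached an unadjusted p under 0.05, and the median log2 difference was 0.09. Hmox1, which degrades heme, differed by 0.09 ± 0.15 and Nqo1, a quinone reductase, by 0.20 ± 0.23. Without ZNP gel 1, which held 3612 Hmox1 counts, the Hmox1 difference was -0.05. Among 16 superoxide and peroxide enzymes 1 had a higher mean in the ZNP gel group at an unadjusted p under 0.05, beside 1.51% of all genes. This was Txn1, the thioredoxin that keeps protein thiols reduced, with 8953, 10554, 7277, 9797 and 9319 counts against 11104, 13534, 12056, 9948 and 11525. Its log2 difference was 0.35 ± 0.12 (SE), and only Cur gel 2 and ZNP gel 4 crossed. Cyp1a1 and Cyp1b1, the usual targets of the aryl hydrocarbon receptor that senses polyphenols and other planar compounds, differed by 0.39 ± 0.28 and 0.06 ± 0.37, and 0 of 8 genes of that pathway reached an unadjusted p under 0.05. The sign of Cyp1b1 turned under some settings.

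**Figure D3:**
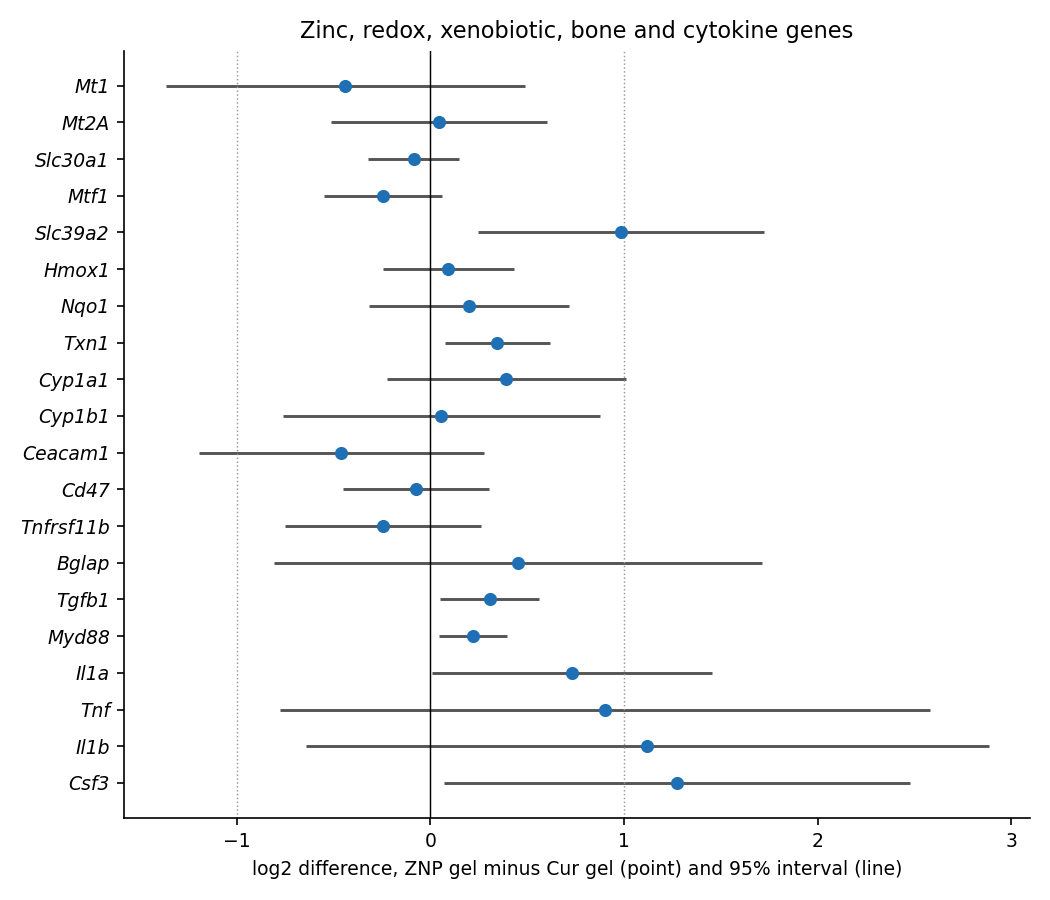
Log2 difference (ZNP gel minus Cur gel, points) with its 95% interval (lines) for genes of zinc handling, redox state, xenobiotic response, bone and inflammation, with dotted lines at a 2-fold difference. Slc30a1 has the interval of -0.32 to 0.15, whereas that of Il1b runs from -0.64 to 2.88.

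Cytokine genes leaned to the ZNP gel side with wide errors. Of 32 tested cytokines and chemokines 30 had a positive log2 difference, beside 54.0% of all genes, with a median of 0.55. At an unadjusted p under 0.05, 3 lay on that side and 0 on the other, beside 1.51% and 1.77% of all genes. The 3 were Csf3, the growth factor of neutrophils (1.27 ± 0.54), Il1a, an alarmin of epithelia (0.73 ± 0.32), and Tgfb1 (0.31 ± 0.11). The list depended on single libraries in both directions. Without ZNP gel 1 the median was 0.30, with 23 of 32 positive, beside 53.1% of all genes. In that fit 1 gene lay on each side at an unadjusted p under 0.05, beside 0.805% higher and 0.995% lower over all genes. Without ZNP gel 3 the median was 0.68 with 0 such genes. Without Cur gel 1 it was 0.85 with 4 such genes, all on the ZNP gel side, beside 2.36% of all genes. Without Cur gel 1 and Cur gel 4 it was 1.07 with 5, also all on that side, beside 2.74%. Il1b, the main inflammasome cytokine, had 947, 79.6, 305, 261 and 127 counts with Cur gel and 2983, 377, 395, 291 and 292 with ZNP gel, a log2 difference of 1.12 ± 0.79 that was 0.49 without ZNP gel 1. The library ZNP gel 1 was high in Il1b and Cur gel 1 was the highest of its group, while the others overlapped. Tnf differed by 0.90 ± 0.75, at 8.38 to 70.8 against 14.8 to 131 counts. Il6, at 0 to 35.1 counts, and Tnfsf11, the gene of RANKL, at 0 to 19.8, were below the filter, and Il4 is listed at 0 in every library.

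Among other immune lists, the interferon and neutrophil lists changed sign without ZNP gel 1. The 20 interferon-stimulated genes summed to 2503 CPM in ZNP gel 1 and 444 to 609 in the other ZNP gel libraries, beside 492 to 727 in the Cur gel group. Their median log2 difference was 0.31 with ZNP gel 1 and -0.12 without it, and 0 reached an unadjusted p under 0.05. For 9 neutrophil genes the median was 0.41 with and -0.06 without ZNP gel 1. S100a8, a calcium-binding protein of neutrophils and stressed epithelium, had 631, 153, 261, 308 and 211 counts with Cur gel and 1873, 780, 961, 408 and 257 with ZNP gel (1.30 ± 0.54 on the log2 scale, and 0.93 without ZNP gel 1). Among 17 Toll-like receptor genes 2 reached an unadjusted p under 0.05, beside 1.51% of all genes on that side, both with positive differences: Myd88, the shared adaptor (0.22 ± 0.08), and Tlr9, the receptor of unmethylated DNA (1.02 ± 0.41). Without ZNP gel 1 the count was 0 and the median 0.02, against 0.11 with it. Among 23 complement genes 2 had a higher and 1 a lower mean in the ZNP gel group at an unadjusted p under 0.05. The shares over all genes were 1.51% and 1.77%. Clu, an inhibitor of the lytic complex, differed by 0.59 ± 0.24, Cfp, which stabilises the alternative pathway convertase, by 0.53 ± 0.23, and C5 by -1.65 ± 0.72. These counts were 0 and 0 without ZNP gel 1, where Clu differed by 0.47, and C5 differed by -0.64 with the muscle and gland covariates. The medians of lymphocyte lists stayed positive without ZNP gel 1, at 0.72 for B and plasma cells (0.90 with it) and 0.29 for T and NK cells (0.56 with it), with 0 genes at an unadjusted p under 0.05 in the whole set of libraries.

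Bone and matrix genes overlapped between the gels where named. Of 11 tested genes of the RANKL and osteoclast list and 18 osteoblast genes, 0 reached an unadjusted p under 0.05, with medians of 0.12 and 0.28. Ceacam1, an inhibitory receptor of leukocytes and epithelium, had 2505, 2675, 3634, 3338 and 1966 counts with Cur gel and 2384, 3400, 884, 1778 and 2553 with ZNP gel, a log2 difference of -0.46 ± 0.33 (SE) with a 95% interval of -1.20 to 0.28. The groups overlapped, and ZNP gel 3 was the lowest library. With muscle and gland levels as covariates the Ceacam1 difference was -0.02. Cd47, the signal that protects cells from phagocytes, differed by -0.07 ± 0.17, Tnfrsf11b, the decoy receptor of RANKL, by -0.25 ± 0.23, and Bglap, which encodes osteocalcin, by 0.45 ± 0.57. The 17 collagen chains had a median of 0.07 and an interval within 2-fold in 14, and the median was -0.09 without ZNP gel 3.

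Sterol and lipid synthesis lay on the Cur gel side. Of 20 genes 3 were positive, beside 54.0% of all genes, and the median was -0.44. At an unadjusted p under 0.05, 3 had a negative difference, beside 1.77% of all genes. This count was 1 without Cur gel 4, ZNP gel 1 or ZNP gel 3, beside 1.185%, 0.995% and 1.32% of all genes. It was 1 as well without Cur gel 1 and Cur gel 4 together, beside 1.49%. With muscle and gland levels as covariates it was also 1, beside 2.63% of all genes. It was 2 without Cur gel 3, 3 without Cur gel 1 and 4 in DESeq2, beside 0.943%, 1.83% and 2.19% of all genes. Insig1, which holds the sterol sensor in the endoplasmic reticulum, had 15712, 25611, 18015, 42951 and 9905 counts with Cur gel and 7695, 21471, 5123, 6164 and 10226 with ZNP gel (-1.17 ± 0.46 on the log2 scale). Acaca, which makes malonyl-CoA, differed by -0.31 ± 0.11. Cur gel 4, the library with the most salivary gland transcripts, was also the highest in Insig1. With the muscle and salivary gland levels as covariates the median of the list was -0.17 and that of Insig1 -0.59. The part of gland tissue in these values was not tested beyond that fit. Among 10 basal keratinocyte genes 1 had a higher mean in the ZNP gel group at an unadjusted p under 0.05, beside 1.51% of all genes. This was Krt15, a keratin of the basal layer, with 2730, 6210, 2387, 2776 and 4562 counts with Cur gel against 7584, 6794, 3602, 8110 and 7397, a log2 difference of 0.89 ± 0.31.

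Cell cycle genes lay on the ZNP gel side in 18 of 19 members tested, with a median of 0.35, beside 54.0% of all genes on that side. Pcna, the sliding clamp of DNA replication, differed by 0.27 ± 0.10 and Mcm6, a subunit of the replicative helicase, by 0.41 ± 0.17, the 2 members at an unadjusted p under 0.05, beside 1.51% of all genes. This count was 9 without Cur gel 1 and Cur gel 4, where 2.74% of all genes had such a higher mean, and 0 without ZNP gel 1, where 0.805% did. In both fits 18 of 19 members were positive, beside 48.9% and 53.1% of all genes. Stress lists were nearer 0: the median was 0.09 for 11 heat shock proteins, with every interval within 2-fold, -0.22 for 16 genes of endoplasmic reticulum stress, where Atf6, a sensor of misfolded protein, differed by -0.31 ± 0.13, and 0.12 for 15 NF-kB subunits and inhibitors. The endoplasmic reticulum median was -0.07 without Cur gel 1 and Cur gel 4 and 0.03 with the covariates, and the NF-kB median was -0.01 without ZNP gel 1, with 7 of 15 positive. The 20 nuclear genes of oxidative phosphorylation had a median of 0.22, and of -0.42 without Cur gel 1 and Cur gel 4.

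**Figure D4:**
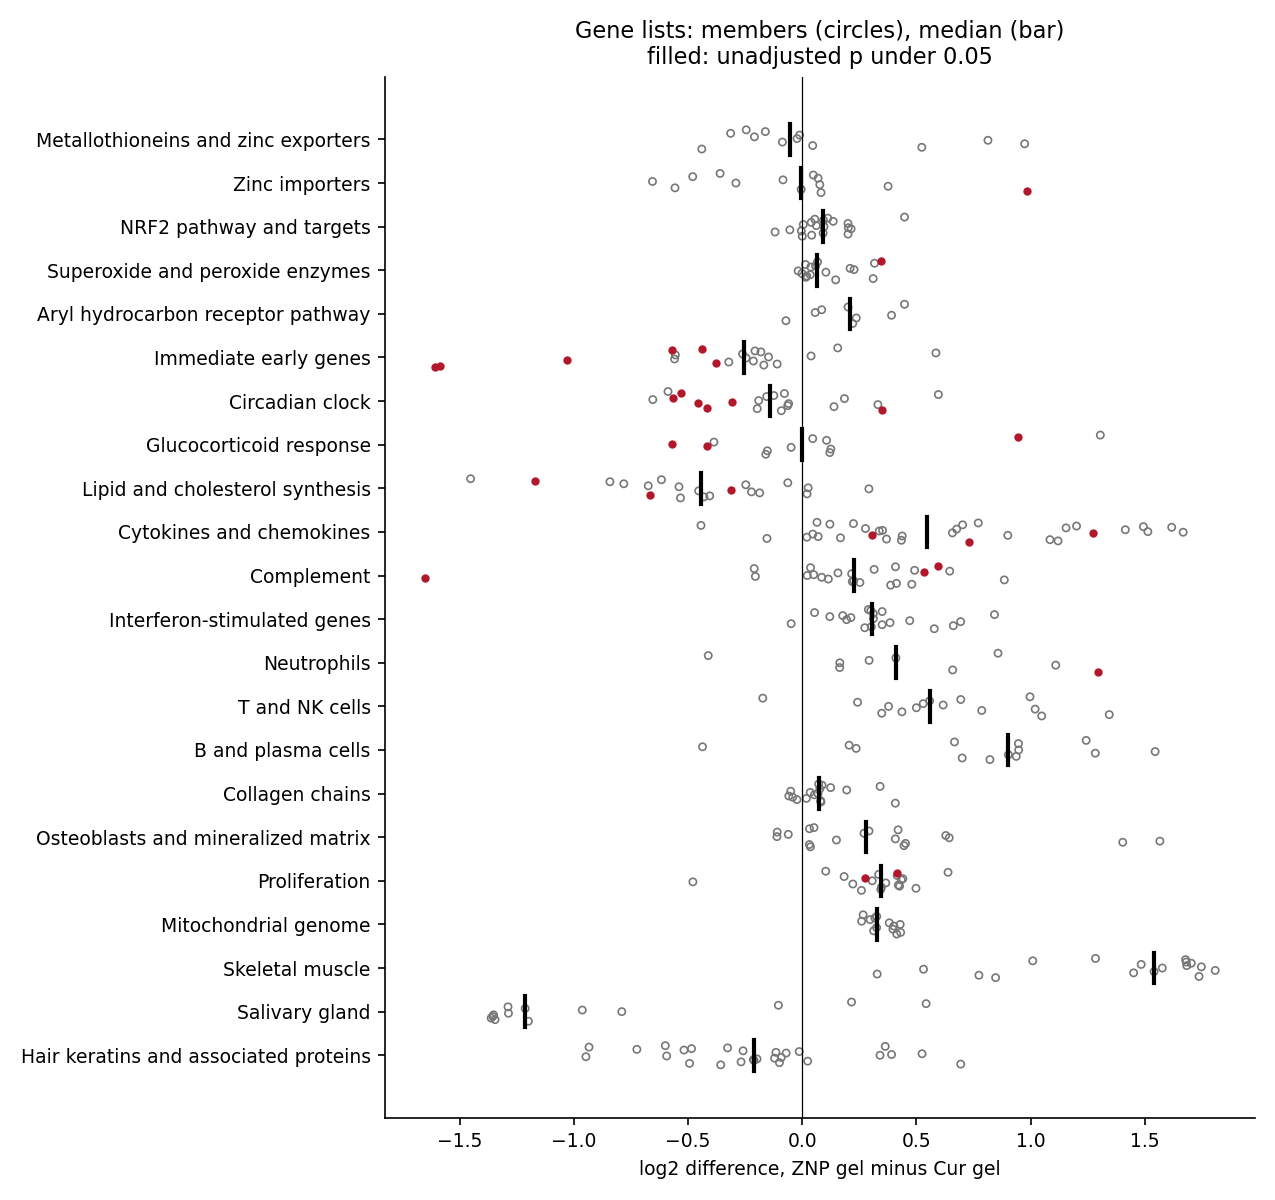
Log2 differences (ZNP gel minus Cur gel) of the tested members of 22 gene lists (circles, filled at an unadjusted p under 0.05), with the median of each list as a bar. The bars of immediate early genes (-0.25) and sterol synthesis (-0.44) lie below 0 and that of cytokines (0.55) above it, and the muscle bar lies at 1.54 with no filled circle.

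Lists of neighbouring tissues had large medians that depended on few libraries. All 17 tested skeletal muscle genes had a positive difference, with a median of 1.54 and 0 at an unadjusted p under 0.05. Without Cur gel 1 and Cur gel 4, both poor in muscle, the median was -0.89 and 0 of 17 were positive, while without either alone it stayed positive, at 0.92 without Cur gel 1 and 0.31 without Cur gel 4. Acta1, the skeletal alpha actin, had 12652 and 3080 counts in Cur gel 1 and Cur gel 4 against 241590 to 487590 in the other Cur gel libraries and 69838 to 660410 in the ZNP gel group. The 13 genes of the mitochondrial genome behaved alike, with a median of 0.33 and of -0.22 without Cur gel 1 and Cur gel 4.

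Hair and gland transcripts were just as uneven. Krt86, a keratin of the hair shaft, had 24376, 163, 495, 10077 and 0 counts with Cur gel and 1471, 95.1, 14121, 6582 and 0 with ZNP gel. The 27 tested hair keratins and their associated proteins had a median of -0.21, of 0.96 without Cur gel 1, of 0.60 without Cur gel 4 and of 2.48 without both. Odam, a protein of the junctional epithelium that seals gum to tooth, had 1185, 0, 7.76, 5.34 and 66.5 counts with Cur gel and 1468, 1393, 5066, 2208 and 0 with ZNP gel, so that 1 Cur gel library and 4 ZNP gel libraries held over 1000 counts. Fdcsp, a secreted protein made in the same epithelium, followed the same libraries, with 12571 counts in Cur gel 1, 11312 to 43512 in ZNP gel 1 to 4 and 16.2 to 351 in the others.

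The principal components followed these tissues. The genes with the highest weights on the first component were muscle genes such as Hhatl, Sln, Myf6 and Myl2, and those with the lowest were hair keratins such as Krt86, Krt81 and Krt83. Cur gel 4 (-94.1) and Cur gel 1 (-80.4) had the lowest scores and ZNP gel 5 (69.9) the highest. On the second component Odam, Glycam1, Csn3 and Fdcsp had the highest weights and the gland genes Sbp and Zg16b the lowest, and the scores ran from -51.0 in Cur gel 4 to 81.8 in ZNP gel 3.

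**Figure D5:**
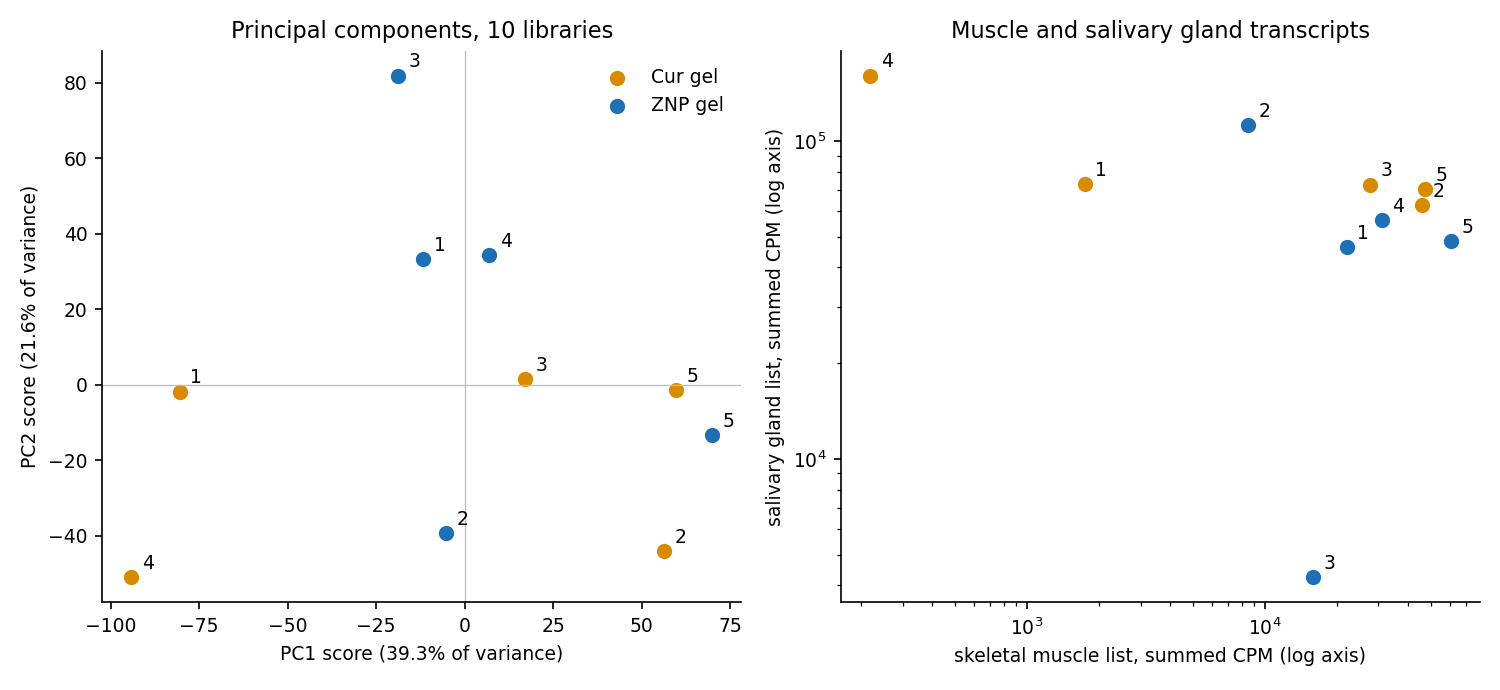
Left, scores of the 10 libraries on the first and second principal components, numbered by rat within each gel. Right, summed CPM of skeletal muscle genes against salivary gland genes (both log axes), where Cur gel 1 (1750) and Cur gel 4 (219) stand apart on muscle and ZNP gel 3 (4240) on salivary gland.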

How the data were processed

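RNA of rat gingiva was sequenced as stranded libraries after removal of ribosomal RNA. The deposited signal values are read numbers of Ensembl transcripts (Rnor_6.0) that the authors scaled by 1 size factor per library, with DESeq2 named in the submitters' processing notes; the aligner and counter are not given in the sources used here. In each of the 10 libraries 100% of values were whole multiples of 1 step within 0.01, which gave back whole reads. Symbols were summed over 41078 transcripts (840 blank lines and 0 unused columns aside); 78 symbols lie on more than 1 chromosome, and 396 transcripts have no symbol.

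The main test was limma 3.58.1 (R 4.3.3, trend and robust) on log2(normalised count + 1) of the 10 libraries, for genes reaching a CPM of 2 in any 1 library, with 8 residual degrees of freedom, two-sided p-values and Benjamini-Hochberg adjustment. Fold changes are on that log2 scale and understate those of low genes. The procedure was tested on simulated data. edgeR 4.0.16 and DESeq2 1.42.0 on the recovered reads were alternatives, as were other pseudocounts, filters, scalings, library weights, a block for the rat number, all 25 libraries in 1 model and each library left out in turn. Left out after the values were seen were Cur gel 1 with Cur gel 4, and Sham 4 with EP 3 and EP 4; muscle and gland covariates were added then too. The labels do not name litters or batches.

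The comparison and the 42 gene lists (691 entries, 30 without a match) were chosen with earlier results of these data known. Named were any called gene, the 10 genes with the largest difference in each direction among those without overlap, with a symbol and a mean log2 CPM of at least 1, the 4 members per list of smallest p, genes tied to the agents or the paper, and genes of largest weight on the components. Hair keratins, the DESeq2 calls, Rps9, Egr1, Zfp36, Arntl, Acta1, Tsc22d3, Fkbp5, Per2 and the promoters shown were chosen after values were seen. Promoter sequences are from RefSeq (GRCr8).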

Additional observations from a re-analysis of the deposited data

Results flagged for a closer look

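In 146 groups of 5 libraries examined, 17 held a library whose gap to its nearest neighbour exceeded 0.71 of the group's range; chance flags about 1 in 20 such groups, and the groups are not independent. ZNP gel 1 was flagged high for Egr1 (3246 counts; the other ZNP gel libraries 1372 to 1897), Samhd1 (2551; 2140 to 2184), Hmox1 (3612; 2094 to 2481), Il1b (2983; 291 to 395), Csf3 (247; 59.2 to 71.8) and Il1a (257; 93.2 to 128). ZNP gel 3 was flagged for Per1 (6297; 4965 to 5264), AC105662.1 (112; 69.3 to 78.7) and Fdcsp (43512; 16.2 to 12140), ZNP gel 4 for Dusp1 (9487; 7074 to 7692), and ZNP gel 5 for the percent of reads in mitochondrial genes (14.8; 9.01 to 10.7).

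In the Cur gel group Cur gel 1 was flagged high for Il1b (947; 79.6 to 305), Odam (1185; 0 to 66.5) and Fdcsp (12571; 47.5 to 351). Cur gel 5 was flagged for Per2 (12879; 6587 to 7220), Cur gel 3 for Pex5l (412; 86.8 to 175) and Cur gel 4 for Serpina11 (253; 158 to 178).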

How the results depend on the processing

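Of 26 other settings for the count of genes that differ between the gels, 24 gave 0 as limma did. DESeq2 gave 10, and leaving out 1 library gave 0 to 1, the 1 being Samhd1 without Cur gel 3. Counts at an unadjusted p under 0.05 ran from 275 (without ZNP gel 1) to 1102 (without ZNP gel 2) with 1 library left out, and from 178 (all 25 libraries in 1 model) to 808 (library weights) under other settings. The difference in the first component was -49.5 without Cur gel 1 and Cur gel 4 and -19.0 to 38.0 with 1 library left out, negative without Cur gel 1 or Cur gel 4, and that in the second was -11.4 and 22.2 to 55.1. The difference in distance to the own group was -0.216 to -0.0629 with 1 library left out. As limma called 0 genes between the gels, there was no call there whose direction could change. The 1 call between ZNP gel and EP, Nr1d1, kept a negative difference under every setting, from -1.24 to -0.990.

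Rat numbers paired the libraries unevenly: the correlations of deviations between same-numbered libraries were 0.446, -0.0177, -0.0976, -0.0934 and 0.512. Only ZNP gel 1 had the same-numbered Cur gel library as its best match. With the rat number as a replicate block limma called 0 genes (758 at an unadjusted p under 0.05) between the gels and 0 between ZNP gel and EP. Without Sham 4, EP 3 and EP 4 the count between ZNP gel and EP was also 0, and with 1 library left out it was 0 to 1; between Cur gel and EP every setting gave 0.

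Of 68 genes named with values, 1662 of 1699 pairs of gene and setting kept sign and call, 26 turned sign without a call, in 9 genes (Fkbp5, Mt1, Mt2A, Slc30a1, Hmox1, Cyp1b1, Cd47, Acta1 and Krt86), and 11 gained a call. Scalings moved the median of all genes by less than 0.03. With 5 rats per group the median width of the 95% interval of a difference was 0.84 on the log2 scale, which limits what could be detected. The alternatives for the comparisons with EP were chosen after seeing the data.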
